A study of Mus musculus with 4 samples.

Results

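SINE/MIR repeats were read here as 1549 repeat entries that had a methylation level in all 4 bisulfite libraries of the mouse line C3H10T1/2. They were chosen by their repeat class and by being listed in every library, and the size of a level did not enter the choice. They made up 1549 of the 44955 repeat entries, and of the 151644 regions of every class, that had a level in all 4 libraries. Another 218 SINE/MIR entries were listed in at least 1 library but not in all 4, out of 1767 listed anywhere.

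Mammalian-wide interspersed repeats (MIRs) are short interspersed elements that spread long ago and no longer move. A copy has a head derived from a tRNA gene, a conserved core, and a tail that resembles the end of the L2 long interspersed element, whose machinery copied it. Because methylated cytosines in CpG sites tend to mutate over time, such old copies have usually lost most of their CpG sites. DNMT1 is the maintenance DNA methyltransferase, and dividing cells that lack it lose CpG methylation, in repeats as elsewhere.

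C3H10T1/2 cells derive from C3H mouse embryos and are labelled as mesenchymal stem cells. All 4 groups were transfected with an siRNA for 48 h. The NC uninduced group received the non-targeting siRNA (NC) and the siDNMT1 uninduced group an siRNA against DNMT1, and both were left without osteoblast (OB) induction. The NC OB and siDNMT1 OB groups received the same siRNAs and then 50 µM L-ascorbic acid, 10 mM beta-glycerophosphate and 0.001 µM dexamethasone for 3 days. No uninduced library was labelled with those 3 further days, so induction and time since transfection cannot be told apart. The methods list more than 1 DNMT1 siRNA and do not say which was used for these libraries. A single cell line was studied, each group is 1 library, and the labels give no replicate. No difference below therefore has a replicate check, and no p-value was computed. The libraries hold no transcript levels, so neither the loss of DNMT1 nor the cell type could be checked in them.

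The level of an entry is the fraction of its CpG cytosines read as methylated, from 0 to 1. No read counts come with it, which leaves its depth unknown and allows no interval. An entry is named by its subfamily and by the stretch of the subfamily consensus that it matches. That name holds no genome position, so copies with the same subfamily and stretch cannot be told apart, and neither a neighbouring gene nor a sequence could be assigned. The libraries listed between 155398 and 159705 regions, of which 1613 to 1696 were SINE/MIR entries. SINE/MIR made up 3.38% to 3.42% of the listed repeats in each library. Of the entries not listed everywhere, 58 were missing in the siDNMT1 OB library alone, 32 in the siDNMT1 uninduced library alone, 6 in the NC OB library alone and 3 in the NC uninduced library alone.

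The entries belonged to 5 subfamilies. MIRb was the most frequent with 537 entries (34.7%), followed by MIR with 419 (27.0%), MIRc with 260 (16.8%), MIR3 with 257 (16.6%) and MIR1_Amn with 76 (4.91%). Entries were fragments of the consensus: the median length was 125 consensus bases, with quartiles of 93 and 161 and a range from 17 to 262. MIR entries were the longest by median (141 bases) and MIR1_Amn entries the shortest (96 bases). Of the repeats of other classes, 71.5% matched more than 200 consensus bases, against 9.49% of the SINE/MIR entries. Middle parts of the consensus were covered most often, with 1356 entries over base 121, against 362 over base 21 and 241 over base 241.

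SINE/MIR entries were methylated to an intermediate median level that differed little between libraries. Before induction the median was 0.507 with NC and 0.5 with siDNMT1, and after OB induction it was 0.501 with NC and 0.479 with siDNMT1. The siDNMT1 OB library was the lowest of the 4, and it was also the lowest over all repeats (0.479, against 0.485 to 0.497). In the NC uninduced library, medians were higher in the related old element LINE/L2 (0.545, n = 889) and in the younger rodent elements SINE/Alu (0.556, n = 2891), SINE/B4 (0.552, n = 3166) and SINE/B2 (0.581, n = 1482). LINE/L1, the most frequent class, had a lower median of 0.426 (n = 20733).

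The SINE/MIR entries were spread more widely over the scale than repeats as a whole. The SD over entries was between 0.263 and 0.270 in the 4 libraries, against 0.223 to 0.227 over all repeats. It was 0.249 to 0.253 in LINE/L2, 0.229 to 0.235 in SINE/Alu, 0.222 to 0.226 in SINE/B4 and 0.211 to 0.213 in SINE/B2. Length was not matched: the median was 125 consensus bases in SINE/MIR and 410 over all repeats. In the NC uninduced library, 16.8% of the SINE/MIR entries had a level below 0.2, against 13.1% of all repeats, and 14.1% had a level of at least 0.8, against 7.93%. LINE/L2 had 12.7% and 15.3% at these ends, and SINE/B2 had 5.40% and 13.0%. The share of SINE/MIR entries at 0.8 and above was 13.3% with siDNMT1 before induction, 14.4% with NC after it and 11.5% with siDNMT1 after it. The share below 0.2 was 17.0%, 17.2% and 18.5% in the same order. The siDNMT1 OB library thus had the fewest highly methylated SINE/MIR entries and the most with low methylation.

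**Figure D1:**
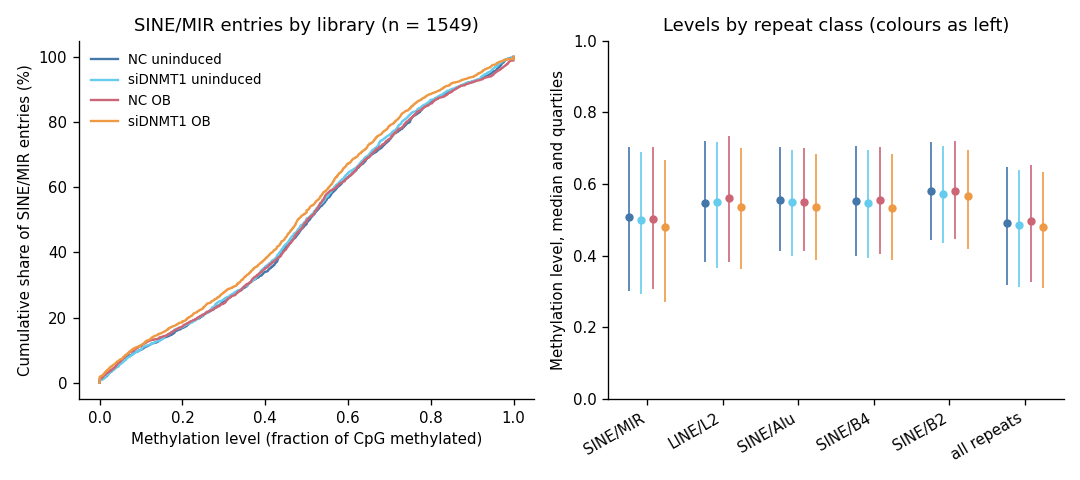
The left panel plots, for each library, the cumulative percentage of the 1549 SINE/MIR entries against the methylation level, and the right panel gives the median (point) and quartiles (line) of the level by repeat class and library. The siDNMT1 OB curve lies to the left of the others over most of the scale, and the SINE/MIR medians of 0.479 to 0.507 sit under those of LINE/L2, SINE/Alu, SINE/B4 and SINE/B2.

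Entries kept their order from library to library. Spearman's rho between 2 libraries was between 0.947 and 0.970 over the 1549 entries, a description across entries of the same genome that are no replicates. The range of an entry over the 4 libraries had a median of 0.0686, and 520 entries (33.6%) stayed within less than 0.05. In repeats of other classes the median range was 0.0506, and 49.4% stayed within less than 0.05. Medians were nearer to SINE/MIR in SINE/Alu (0.0643), LINE/L2 (0.0620), SINE/B2 (0.0597) and SINE/B4 (0.0595). In these classes 37.7%, 38.6%, 39.3% and 41.0% stayed within less than 0.05. The range reached at least 0.2 in 110 SINE/MIR entries (7.10%), against 5.23% of the repeats of other classes. SINE/Alu, LINE/L2, SINE/B2 and SINE/B4 gave 6.68%, 5.06%, 6.21% and 6.22%.

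Many SINE/MIR entries stayed at an end of the scale throughout. Levels were below 0.1 in all 4 libraries for 129 entries (8.33%), against 3.26% of all repeats. They were at least 0.9 in all 4 libraries for 80 entries (5.16%), against 1.74% of all repeats. The shares were also higher than those of LINE/L2 (5.51% and 4.72%), SINE/Alu (4.08% and 3.80%), SINE/B4 (3.19% and 2.91%) and SINE/B2 (1.82% and 3.91%). Length was not matched for these shares. MIR1_Amn had the largest share at both ends, with 10 of 76 entries steadily low and 8 steadily high, and MIR had the smallest steadily low share, with 27 of 419.

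The entries with the lowest and highest mean levels show these ends. MIRb bases 227 to 261 and MIRb bases 38 to 79 were listed at 0 in all 4 libraries. MIRc bases 115 to 170, MIR bases 90 to 251 and MIR bases 54 to 173 were above 0 in a single library each, at 0.00704 in siDNMT1 OB, 0.0116 in NC OB and 0.0204 in NC uninduced. At the other end, MIR bases 88 to 157 had levels of 1 in both NC libraries and in siDNMT1 OB and 0.976 in siDNMT1 uninduced. MIRc bases 120 to 225 had levels of 1 in both NC libraries, 0.971 in siDNMT1 uninduced and 0.975 in siDNMT1 OB. MIR1_Amn bases 69 to 139, MIRb bases 192 to 258 and MIR1_Amn bases 68 to 159 ranged from 0.970 to 0.994 over the libraries. In 3 of these 5 highest entries the siDNMT1 level was slightly below the NC level both before and after induction.

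Subfamilies differed little in their median level. In the NC uninduced library, medians were 0.514 for MIR, 0.512 for MIRb, 0.518 for MIRc, 0.524 for MIR1_Amn and 0.472 for MIR3. MIR3 was the lowest in every library, level with MIR1_Amn at 0.451 in siDNMT1 OB. The quartiles of every subfamily overlapped widely, from 0.256 to 0.702 in MIR3 and from 0.316 to 0.696 in MIRb. Entries below 0.2 in the NC uninduced library made up 22.4% of MIR1_Amn and 21.4% of MIR3, against 15.1% to 15.8% of MIRb, MIR and MIRc.

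Median levels varied along the consensus, without a steady rise from end to end. Entries covering base 61 had a median of 0.486 in the NC uninduced library (n = 982), those covering base 121 had 0.509 (n = 1356), those covering base 181 had 0.521 (n = 749), and those covering base 241 had 0.567 (n = 241). The siDNMT1 OB medians at these bases were 0.465, 0.484, 0.501 and 0.553. Toward both ends the medians differed from this trend, at 0.508 over base 21 (n = 362) and 0.501 over base 261 (n = 74) with NC uninduced, and at 0.473 and 0.459 with siDNMT1 OB. An entry covers many bases and enters at each of them, and consensus numbering belongs to each subfamily, so pooled positions are approximate. Between bases 61 and 241 the medians differed more in MIRb than in MIR or MIRc, from 0.485 at base 61 (n = 325) to 0.595 at base 241 (n = 129) in the NC uninduced library. MIR went from 0.491 (n = 297) to 0.538 (n = 86), and MIRc was near 0.505 (n = 172) at base 61 and 0.502 (n = 25) at base 241. MIR3 has no entry that reaches base 241. Over single entries the relation was weak: Spearman's rho between the mean level and the last consensus base was 0.0697, and with the length it was 0.0245 (n = 1549).

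**Figure D2:**
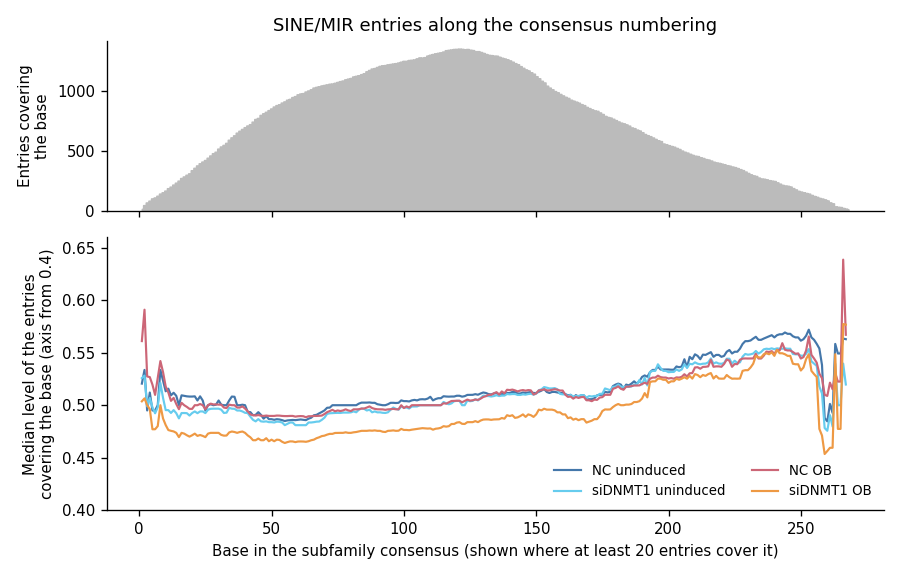
The upper panel gives the number of SINE/MIR entries that cover each consensus base, and the lower panel the median methylation level of those entries in each library (axis from 0.4). The median in the NC uninduced library goes from 0.486 at base 61 to 0.567 at base 241, and the siDNMT1 OB line is the lowest over most of the consensus. It is 0.508 at base 21 and 0.501 at base 261, and few entries lie at the outermost bases, where the lines jump.

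Before OB induction, most SINE/MIR entries differed little between the siDNMT1 and the NC library. The median difference, siDNMT1 minus NC, was -0.00457, with quartiles of -0.0314 and 0.0210 over the 1549 entries. The level was below NC in 855 entries (55.2%). It was lower by at least 0.1 in 84 entries (5.42%), where all repeats gave 3.52% and all regions 1.59%. It was higher by at least 0.1 in 46 entries (2.97%), where all repeats gave 2.89% and all regions 1.34%. The share of lower entries was thus above the background of all repeats and the share of higher entries was close to it, while the median over all repeats (-0.00535) was slightly further below 0 than that of SINE/MIR. The direction of the SINE/MIR median depended on the scaling, since it became 0.00146 with every library centred on its median over all repeats.

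After OB induction the difference between the siDNMT1 and the NC library was larger. Its median was -0.0208, with quartiles of -0.0516 and 0.00952, and 1042 entries (67.3%) were below NC. The level was lower by at least 0.1 in 140 entries (9.04%), where all repeats gave 5.41% and all regions 2.56%. It was higher by at least 0.1 in 49 entries (3.16%), where all repeats gave 3.11% and all regions 1.4%. The median over all repeats was -0.0158. Of the changed SINE/MIR entries 74.1% were lower, and this split depended on the scaling: with every library centred on its median over all repeats, 101 were lower and 69 higher (59.4% lower), and the SINE/MIR median was -0.00272. All repeats gave 1783 lower and 1846 higher under that centring. The siDNMT1 OB library also listed the fewest regions of the 4, and the part of this in the result was not tested.

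The related classes gave smaller shares of lower entries than SINE/MIR in both siDNMT1 comparisons. After induction, entries lower by at least 0.1 made up 8.03% of SINE/B2, 7.54% of LINE/L2, 7.44% of SINE/Alu, 6.48% of SINE/B4 and 4.17% of LINE/L1. Before induction they made up 3.78%, 3.60%, 4.50%, 3.92% and 3.18% in the same order. The medians did not follow this order. After induction SINE/B2 had a median of -0.0223, a little further below 0 than the -0.0208 of SINE/MIR, and LINE/L2 had -0.0189. No replicate spread was available against which such gaps between classes could be set.

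**Figure D3:**
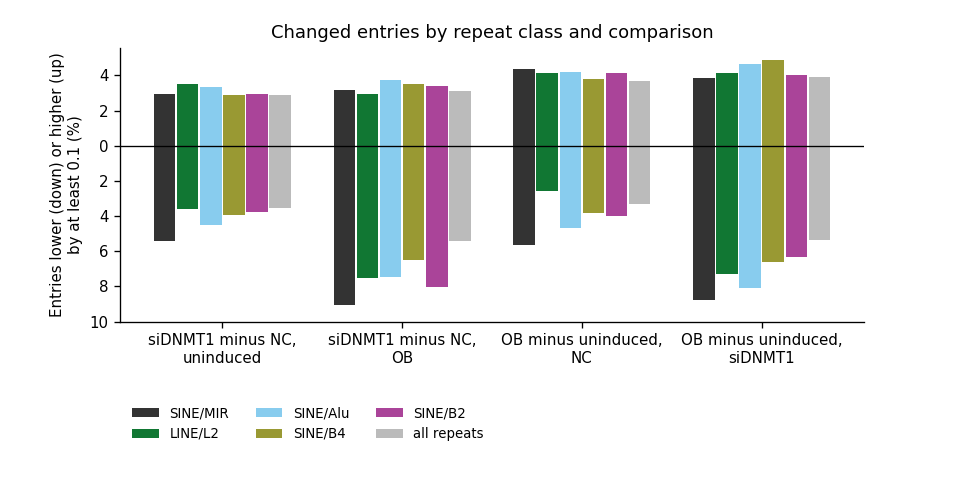
Bars give the percentage of entries higher (up) or lower (down) by at least 0.1 in each of the 4 comparisons, by repeat class. Of the classes shown SINE/MIR has the longest downward bar in every comparison, with 9.04% lower for siDNMT1 minus NC after OB induction against 5.41% of all repeats, while its upward bars stay within the range of the other classes or close to it.

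OB libraries were compared with uninduced ones within each siRNA, a contrast that also holds the 3 further days in culture. With NC, the median difference OB minus uninduced was 0.000378 over SINE/MIR entries, 0.00603 over all repeats and -0.00226 over all regions. It was 0.00244 in SINE/B2, 0.00198 in LINE/L2, -0.000376 in SINE/Alu, 0.000787 in SINE/B4 and 0.00989 in LINE/L1. SINE/MIR entries lower by at least 0.1 numbered 87 (5.62%), where all repeats gave 3.33% and all regions 1.96%. Those higher numbered 68 (4.39%), where all repeats gave 3.66% and all regions 1.62%. With NC, lower entries made up 3.98% of SINE/B2, 2.59% of LINE/L2, 4.67% of SINE/Alu, 3.82% of SINE/B4 and 2.73% of LINE/L1. With siDNMT1, the SINE/MIR median was -0.0157, against -0.00347 over all repeats and -0.00712 over all regions. It was -0.0127 in SINE/B2, -0.0118 in LINE/L2, -0.0109 in SINE/Alu, -0.0101 in SINE/B4 and 0.000988 in LINE/L1. Lower SINE/MIR entries numbered 136 (8.78%), where all repeats gave 5.35% and all regions 3.28%. Higher ones numbered 60 (3.87%), where all repeats gave 3.92% and all regions 1.78%. Lower entries made up 6.34% of SINE/B2, 7.31% of LINE/L2, 8.09% of SINE/Alu, 6.60% of SINE/B4 and 4.07% of LINE/L1. The SINE/MIR median near 0 with NC is sensitive to scaling, and became -0.00629 after centring on all repeats. These comparisons share their libraries with the siDNMT1 comparisons above and are no separate evidence.

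Each subfamily had a median below 0 in both siDNMT1 comparisons, although before induction MIR and MIRb turned above 0 (0.00117 and 0.00316) when libraries were centred on all repeats. After induction the medians were -0.0189 for MIR, -0.0205 for MIRb, -0.0224 for MIRc, -0.0196 for MIR3 and -0.0228 for MIR1_Amn. Centred on all repeats they shrank to -0.000779, -0.00237, -0.00433, -0.00152 and -0.00466. Before induction the uncentred medians were -0.00486, -0.00288, -0.00716, -0.00614 and -0.00987 in the same order. The share lower by at least 0.1 after induction went from 7.64% of MIR (32 of 419) to 10.5% of MIR1_Amn (8 of 76), with 8.94% of MIRb, 9.73% of MIR3 and 10.4% of MIRc between them. Before induction it went from 4.47% of MIRb (24 of 537) to 9.21% of MIR1_Amn (7 of 76). MIR1_Amn rests on few entries, and counts of 7 and 8 give its shares little precision.

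Differences were on the whole larger in entries with higher levels. Entries were put in 5 classes by their mean level over the 4 libraries, the same libraries that form the differences. The SINE/MIR class below 0.2 had a median level of 0.0692, which left little room for a fall. After induction the median difference was -0.00185 in the 260 entries below 0.2, -0.0225 in the 285 from 0.2 to 0.4, -0.0196 in the 455 from 0.4 to 0.6, -0.0288 in the 351 from 0.6 to 0.8 and -0.0307 in the 198 at 0.8 and above. Repeats of other classes gave -0.00306, -0.0124, -0.0170, -0.0204 and -0.0216. SINE/MIR entries were thus further below 0 than other repeats of like level in the 4 classes from 0.2 upward. Length and repeat class were not matched in this comparison. Of the other repeats, 71.5% matched more than 200 consensus bases. Their median after induction was -0.0151, against -0.0167 to -0.0183 in the shorter length classes. Before induction the SINE/MIR medians were 0.00257, -0.00200, -0.00599, -0.00973 and -0.0104, and those of other repeats 0.00108, -0.00295, -0.00570, -0.00851 and -0.0111, so the sets lay close together.

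Entries at the top of the scale were seldom lower by 0.1 before induction and more often after it. Of the 198 entries at 0.8 and above, 22 were lower and 6 higher by at least 0.1 after induction, against 1 lower and 4 higher before it. As shares, 11.1% were lower and 3.03% higher after induction, where other repeats of that level gave 5.66% and 2.43%. Before induction 0.505% were lower and 2.02% higher, where other repeats gave 3.16% and 1.70%. The level was below NC in 159 of the 198 (80.3%) after induction, against 2255 of the 3006 other repeats, and in 130 (65.7%) before it, against 69.7%. The SINE/MIR shares at the top of the scale thus lay above those of other repeats after induction and under them before it, for lower entries and for entries below NC alike. The 80 steadily high entries had medians of 0.967 with NC and 0.957 with siDNMT1 before induction, and of 0.971 with NC and 0.943 with siDNMT1 after it. Over all repeats the steadily high entries had nearly the same 4 medians: 0.968, 0.955, 0.974 and 0.946. Both sets were chosen for levels of at least 0.9 in every library, which limits how far these medians could differ.

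**Figure D4:**
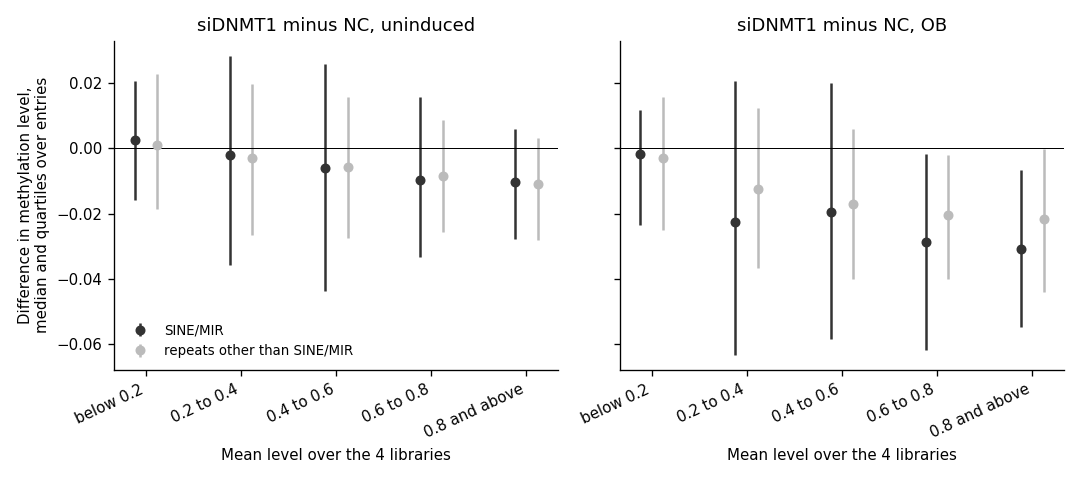
Points give the median difference in methylation level, siDNMT1 minus NC, and lines its quartiles over entries, by class of mean level, for SINE/MIR (black) and for repeats of other classes (grey). After OB induction the SINE/MIR median goes from -0.00185 below a level of 0.2 to -0.0307 at 0.8 and above, and before it from 0.00257 to -0.0104. Entries below 0.2 had little room for a fall.

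Length was compared because SINE/MIR entries were shorter than other repeats. After induction, entries lower by at least 0.1 made up 9.91% of the SINE/MIR entries of up to 60 consensus bases (n = 111), 12.4% from 61 to 100 (n = 378), 7.59% from 101 to 150 (n = 580), 8.41% from 151 to 200 (n = 333) and 6.80% above 200 (n = 147). Repeats of other classes gave 8.86%, 8.02%, 7.60%, 7.89% and 4.26% in the same length classes. The gap to other repeats was therefore narrow in most length classes and absent from 101 to 150 bases. It was widest from 61 to 100 bases and above 200 bases. The class above 200 bases has no upper limit and does not match length. SINE/MIR entries in it reached 262 bases at most, and other repeats up to 47113. Before induction the SINE/MIR shares were 7.21%, 5.03%, 5.69%, 6.31% and 2.04%, against 3.81%, 5.10%, 4.72%, 3.94% and 3.02% of other repeats, so SINE/MIR was not above other repeats from 61 to 100 bases or above 200 bases. After induction the median difference of SINE/MIR stayed between -0.0189 and -0.0220 in all 5 length classes, against -0.0151 to -0.0183 in other repeats. Along the consensus the median after induction was also even, at -0.0209 over base 61, -0.0211 over base 121, -0.0188 over base 181 and -0.0220 over base 241.

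The siDNMT1 comparisons before and after induction use separate libraries, and single entries seldom changed alike in them. Spearman's rho between both differences was 0.0551 and Pearson's r was -0.0335 (n = 1549). Entries lower by at least 0.1 in both numbered 15 (0.968%), where all repeats gave 0.716%. They made up 17.9% of the 84 lower before induction and 10.7% of the 140 lower after it. Entries higher in both numbered 5 (0.323%), where all repeats gave 0.492%, which is 10.9% of the 46 and 10.2% of the 49. In opposite directions, 13 entries were lower before and higher after induction, and 12 higher before and lower after. Entries that crossed the threshold in both comparisons were thus about as often opposite (25 entries) as alike (20 entries). Over all repeats 518 entries were opposite and 543 alike.

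**Figure D5:**
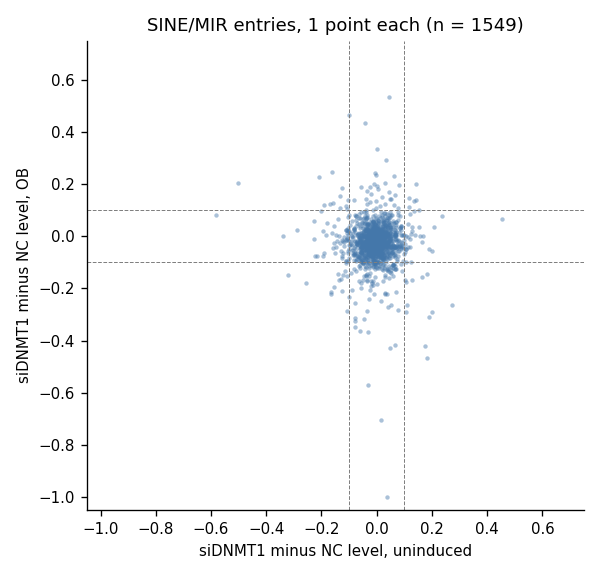
Each point is 1 of the 1549 SINE/MIR entries, with the siDNMT1 minus NC difference in methylation level before OB induction on the horizontal axis and after it on the vertical axis, and dashed lines at -0.1 and 0.1. Most points lie within the lines and somewhat below 0 on the vertical axis, and the points furthest from 0 on either axis mostly lie close to 0 on the other.

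The 6 entries lower in both comparisons by the widest margin included 3 of MIRc. MIRc bases 109 to 147 was at 0.75 with NC and 0.493 with siDNMT1 before induction, and 0.4 with NC and 0.222 with siDNMT1 after it. MIRc bases 115 to 215 had 0.571, 0.407, 0.464 and 0.250 in the same order of libraries. MIRc bases 16 to 90 had 0.75, 0.429, 0.647 and 0.5. In all 3 the siDNMT1 level was the lower of each pair, and the OB level of NC was below the uninduced one. MIR bases 83 to 156 had 0.656, 0.517, 0.683 and 0.538, and MIR1_Amn bases 60 to 178 had 0.538, 0.386, 0.630 and 0.438. Both were lower with siDNMT1 by similar amounts before and after induction, at -0.139 and -0.144 for the first and -0.153 and -0.193 for the second. MIRb bases 2 to 134 had 0.167, 0, 0.722 and 0.5, so its levels moved more between uninduced and OB cells than between the siRNAs.

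The 5 entries higher in both comparisons had mean levels over the 4 libraries from 0.319 to 0.619. MIR bases 161 to 221 was at 0.167 with NC and 0.308 with siDNMT1 before induction, and 0.3 with NC and 0.5 with siDNMT1 after it. MIRb bases 43 to 199 had 0.417, 0.558, 0.526 and 0.667 in the same order, and MIRb bases 72 to 193 had 0.463, 0.581, 0.496 and 0.643. In these 3 entries siDNMT1 OB was the highest library and NC uninduced the lowest. MIRc bases 23 to 221 had 0.516, 0.65, 0.587 and 0.722, with the same lowest and highest library. MIR3 bases 38 to 144 had 0.385, 0.5, 0.389 and 0.5, with both siDNMT1 levels equal.

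The largest differences before induction were in entries whose other 3 levels lay close together or that went the other way after induction. MIRb bases 59 to 208 was at 0.583 with NC and 0 with siDNMT1 before induction, and 0.527 with NC and 0.609 with siDNMT1 after it. MIRb bases 35 to 118 had 0.629, 0.125, 0.416 and 0.619 in the same order. MIRb bases 14 to 147 had 0.85, 0.511, 0.5 and 0.5, so here the NC uninduced library stood apart. Among the largest differences upward, MIRb bases 18 to 156 had 0.545, 1, 0.471 and 0.536, and the siDNMT1 uninduced library alone stood apart. MIR bases 81 to 226 had 0.412, 0.647, 0.385 and 0.462. MIR1_Amn bases 79 to 155 had 0.244, 0.518, 0.429 and 0.167, higher with siDNMT1 before induction and lower after it.

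The entries with the largest differences after induction had high, low or extreme levels in 1 or both of the OB libraries. MIRc bases 51 to 170 was at 0.5 with NC and 0.538 with siDNMT1 before induction, and 1 with NC and 0 with siDNMT1 after it, a difference of -1 that spans the whole scale. MIR3 bases 111 to 141 had 0.423, 0.438, 0.706 and 0 in the same order, and MIRb bases 27 to 259 had 0.684, 0.653, 1 and 0.429. In all 3 the uninduced levels lay close together, the NC OB level was the highest and the siDNMT1 OB level the lowest. MIRc bases 52 to 204 had 0.545, 0.727, 1 and 0.535, higher with siDNMT1 before induction and lower after it. Upward, MIR3 bases 74 to 133 had 0.476, 0.522, 0.467 and 1, and MIRc bases 84 to 144 had 0.5, 0.458, 0.4 and 0.833. MIR bases 85 to 236 had 0.579, 0.478, 0.370 and 0.833, lower with siDNMT1 before induction and higher after it. In these last 3 entries the siDNMT1 OB library was the highest of the 4. Several of these entries had a level of exactly 0 or 1 in a library. Leaving out every entry with such a level in any library left 1477 entries, of which 121 were lower and 42 higher after induction and 80 and 41 before it. No like count was made over all repeats.

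Set against each other entry by entry, the siDNMT1 difference after induction was below the one before it in 952 entries (61.5%). The median gap was -0.0150 over SINE/MIR, with quartiles of -0.0556 and 0.0214, and -0.0106 over repeats of other classes, where 60.4% were below 0. The level was below NC in both comparisons in 596 entries (38.5%) and above NC in both in 236 (15.2%), against 41.1% and 14.2% of the repeats of other classes. With 1 library per group, a difference between siRNAs and a difference between libraries cannot be told apart.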

How the data were processed

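Bisulfite sequencing was read in 4 libraries, 1 for each combination of siRNA and induction. Per the labels, DNA was sheared by sonication before bisulfite treatment, although the libraries are titled as reduced representation. The submitters' processing notes name CASAVA, Trimmomatic 0.36, Bismark 0.16.3 and the build mm10. What the authors deposited is, for each library and region, a fraction: CpG cytosines read as methylated over all CpG cytosines read. The coverage minimum, the weighting of cytosines in a region and the repeat annotation are not given in the sources used here, and neither is the depth, which limits how precisely a single level is known.

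SINE/MIR entries with a level in all 4 libraries were kept. Differences were taken as siDNMT1 minus NC and as OB minus uninduced. An entry was counted from a difference of 0.1 (tolerance 1e-12). No test was run, since each condition is 1 library. The members, lists and comparisons were chosen with earlier results of these data known. Entries are named when they changed by at least 0.1 the same way in each siDNMT1 comparison (up to 6 a direction), had the 5 lowest or highest mean levels, or showed the 3 largest differences per direction and comparison or the 3 largest gaps per direction between the comparisons, which gave 34 entries. A planned choice by neighbouring gene could not be made without genome positions. Counting functions were tested on simulated data. Alternatives covered the threshold, centring, the entries kept, and minimum level and length. Tables were made with pandas 2.3.3 and numpy 2.4.6, correlations with scipy 1.17.1 and figures with matplotlib 3.10.9, under Python 3.11.15.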

Additional observations from a re-analysis of the deposited data

Results flagged for a closer look

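Among the named entries, 4 differed between siDNMT1 and NC by at least 0.1 in opposite directions before and after OB induction. These 4 were named for the largest differences or the largest gaps between the comparisons, a choice that favours opposite directions. Of all 1549 entries, 0.839% were lower before and higher after induction and 0.775% the reverse. All repeats gave 0.534% and 0.618%. With 1 library per condition, none of these differences between the comparisons was tested. MIRb bases 35 to 118 differed by -0.504 before induction and by 0.203 after it. MIR bases 85 to 236 differed by -0.101 and then by 0.463. MIR1_Amn bases 79 to 155 differed by 0.274 and then by -0.262, and MIRc bases 52 to 204 by 0.182 and then by -0.465.

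Over SINE/MIR entries the median of OB minus uninduced lay on opposite sides of 0, at 0.000378 with NC and -0.0157 with siDNMT1. All repeats were split the same way, at 0.00603 and -0.00347, as were SINE/B2, SINE/B4 and LINE/L2. SINE/Alu and all regions (-0.00226 and -0.00712) were below 0 with both siRNAs, and LINE/L1 was above 0 with both. With libraries centred on all repeats, both SINE/MIR medians were below 0 (-0.00629 and -0.0103). The difference between the siRNAs was not tested either.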

How the results depend on the processing

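Counts at the 0.1 threshold are given as lower and higher, in the order siDNMT1 minus NC uninduced, siDNMT1 minus NC after OB induction, OB minus uninduced with NC, and OB minus uninduced with siDNMT1. At a threshold of 0.05 the counts were 237 and 179, 408 and 143, 248 and 218, and 407 and 159. At 0.2 they were 12 and 5, 37 and 14, 21 and 12, and 44 and 15. Among the 770 entries with a mean level of at least 0.5 they were 37 and 28, 70 and 27, 38 and 27, and 68 and 26, with medians of -0.00862 and -0.0269 for the siDNMT1 comparisons and -0.0187 for OB minus uninduced with siDNMT1. Among the 1073 entries of at least 100 consensus bases, an alternative chosen after seeing the data, they were 57 and 30, 83 and 29, 52 and 44, and 80 and 41. These counts moved because the threshold changed or because fewer entries entered, and lower entries outnumbered higher ones in each of them. No counts over all repeats were made at these settings, so the share of SINE/MIR has no background there. At 0.1 all repeats gave 1583 and 1298, 2434 and 1399, 1499 and 1647, and 2404 and 1762 in the same order. Lower entries thus also prevailed over all repeats, except for OB minus uninduced with NC.

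Centring every library on its median over all repeats reversed 2 medians, to 0.00146 for siDNMT1 minus NC uninduced and to -0.00629 for OB minus uninduced with NC, and moved the others to -0.00272 and -0.0103. The shift of the libraries themselves was the only change in that alternative. Of 56 alternative counts 26 stayed within 1.5 times the reported count. All 12 values from entries listed in both libraries of a comparison stayed close to those reported. So did all 12 without entries at exactly 0 or 1, an alternative chosen after seeing the data. Counts were called close within 1.5 times, and medians within an interval of the reported median over entries. Entries are no replicates, so that interval measures no spread between libraries. In the order of comparisons given above, the medians were -0.00488, -0.0204, 0 and -0.0156 for entries listed in both libraries. Without entries at 0 or 1 they were -0.00486, -0.0208, 0.000459 and -0.0157.

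No paired analysis was possible because each condition has 1 library. Autosomes only, CpG island overlap and a minimum of 3 CpG sites were not run, since the entries carry no genome position. Depth is unknown and cannot be set against the differences.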
